A study of Mus musculus with 5 samples.

Results

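MHC class I molecules were examined in macrophages of the mouse aorta through 10 genes: 9 heavy chain genes, H2-K1, H2-D1, H2-Q4, H2-Q6, H2-Q7, H2-T22, H2-T23, H2-M2 and H2-M3, and B2m, the gene of the light chain beta-2 microglobulin. They were found among 41388 Ensembl gene IDs by matching each ID to its symbol, and all 10 were present. The list was chosen by gene family after the large difference of H2-M2 between the 2 groups of these libraries had been seen, so the members' values in that contrast are given as a description and carry no test. Poly-A RNA of sorted cells was sequenced in 5 libraries. The 3 adventitia libraries hold cells from the outer coat of whole aortas of ApoE-/- mice on a C57BL/6 background, which lack apolipoprotein E, fed a high-fat diet for 28 weeks (6 mice are named for the group) and gated as propidium iodide-negative and CD64+. The 2 intima libraries hold cells from the inner layer of the thoracic aorta of C57BL/6 mice, 5 mice pooled per sample, gated as propidium iodide-negative, CD64+, CD11c+ and MHC II+. Both tissues were digested with collagenase and hyaluronidase. Age was not given in the sources used here. No diet is labelled for the intima mice. Aortic layer, genotype, labelled diet, aortic segment and gate all differ between the groups together and cannot be told apart.

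A class I molecule is a membrane-bound heavy chain paired with beta-2 microglobulin, and it carries a peptide to the cell surface, where CD8 T cells and natural killer cells read it. The proteasome supplies the peptides, the TAP transporter moves them into the endoplasmic reticulum, and tapasin and its partners help to load them. H2-K1 and H2-D1 encode the classical, highly polymorphic heavy chains. The non-classical chains of the Q, T and M regions vary less and include molecules with narrow tasks: H2-T23 encodes Qa-1, a ligand of the CD94/NKG2A receptor of natural killer cells, H2-M3 presents N-formylated peptides, H2-T22 is recognised by a class of gamma delta T cells, and H2-Q7 encodes a Qa-2 molecule. Macrophages, like nearly all nucleated cells, carry classical class I molecules.

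The 9 heavy chain genes are paralogs on chromosome 17 and share sequence, which bears on every count, since the libraries were read as single reads of 50 bases. The same 50 coding bases are shown for each because they show how alike the genes are. They come from the exon of the alpha-3 domain, which contacts CD8. Capitals mark the bases that differ from H2-K1.
H2-K1: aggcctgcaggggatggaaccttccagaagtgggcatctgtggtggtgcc
H2-D1: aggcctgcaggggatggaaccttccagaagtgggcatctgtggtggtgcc
H2-Q4: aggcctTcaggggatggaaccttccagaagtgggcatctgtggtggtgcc
H2-Q6: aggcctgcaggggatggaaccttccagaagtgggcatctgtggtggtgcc
H2-Q7: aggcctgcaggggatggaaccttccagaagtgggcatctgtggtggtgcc
H2-T22: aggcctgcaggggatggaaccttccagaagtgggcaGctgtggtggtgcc
H2-T23: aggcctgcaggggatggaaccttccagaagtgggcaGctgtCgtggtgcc
H2-M2: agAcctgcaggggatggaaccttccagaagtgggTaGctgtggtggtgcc
H2-M3: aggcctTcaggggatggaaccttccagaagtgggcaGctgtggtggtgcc
These are reference sequences of GENCODE M21 (GRCm38), on the coding strand, and 45 of the 50 columns are the same in all 9 genes. The letters of H2-K1, H2-D1, H2-Q6 and H2-Q7 are identical here, so a read of these bases could not tell those 4 genes apart. H2-M2 differs from H2-K1 at 3 bases, and its window lies at chr17:37481546-37481595. H2-K1's lies at chr17:33997359-33997408. Over the coding sequence, H2-Q6 and H2-Q7 were identical at 95.4% of aligned bases and H2-K1 and H2-D1 at 91.4%, whereas H2-M2 ranged from 66.5% identity with H2-T22 to 71.6% with H2-D1.

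Across whole transcripts the sharing was far less even. Windows of 50 bases were sought on both strands, so genes lying opposite a member at the same place count beside its relatives. Of all windows, 53.5% of those of H2-T22 also occurred in a transcript of another gene. The share was 36.4% for H2-Q4, 35.0% for H2-Q6 and 26.5% for H2-Q7. For H2-T23 it was 14.5%, for H2-D1 12.8% and for H2-K1 9.63%. It was 1.61% for H2-M2 (25 of 1548 windows), 0.576% for H2-M3 and 0 of 811 windows for B2m. How reads that match several genes were counted, and whether strand was used, was not given in the sources used here, so the values of the Q genes and of H2-T22 are uncertain and could include reads of their relatives. H2-T22 shares 31.2% of its windows with H2-T10 and 26.5% with A930015D03Rik. The latter lies opposite 1003 of its exonic bases and had 0 reads in all 5 libraries. H2-Q4 overlaps Gm11131 on the opposite strand over 496 exonic bases. It shares 15.3% of its windows with Gm11131 and 9.68% with H2-Q6.

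**Figure D1:**
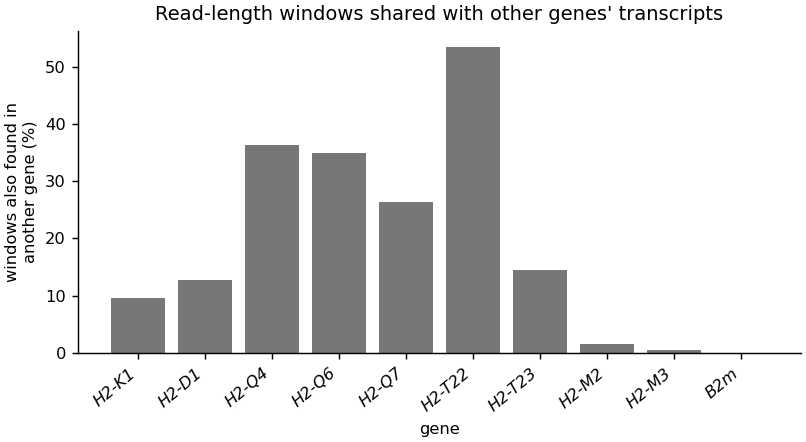
Share of each gene's 50-base transcript windows (y axis, percent) that also occur, on either strand, in a transcript of another gene, with 1 bar per class I gene. H2-T22 stands highest at 53.5%, while H2-M2, H2-M3 and B2m lie at 1.61%, 0.576% and 0%.

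The 250 bases before the transcription start are shown for 5 members that represent the classical, Q, T and M heavy chains and the light chain, as RefSeq gives them on GRCm38.p6 (5′ to 3′ on the gene's strand). Capitals mark matches to 3 motifs searched on both strands: GGGGATTCC, a kappa B element, TGACGC, a core like that of a cAMP response element, and GAAANNGAA, an interferon regulatory factor element.
H2-K1: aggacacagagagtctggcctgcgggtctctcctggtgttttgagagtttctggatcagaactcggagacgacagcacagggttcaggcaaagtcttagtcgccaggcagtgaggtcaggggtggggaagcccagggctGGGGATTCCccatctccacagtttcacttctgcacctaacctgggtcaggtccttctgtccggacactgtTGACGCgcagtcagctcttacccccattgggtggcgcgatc
H2-Q7: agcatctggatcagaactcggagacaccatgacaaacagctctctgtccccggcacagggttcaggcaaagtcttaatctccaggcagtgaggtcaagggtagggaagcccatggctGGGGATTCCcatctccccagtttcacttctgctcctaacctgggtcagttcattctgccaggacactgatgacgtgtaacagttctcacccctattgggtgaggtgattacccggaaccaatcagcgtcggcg
H2-T22: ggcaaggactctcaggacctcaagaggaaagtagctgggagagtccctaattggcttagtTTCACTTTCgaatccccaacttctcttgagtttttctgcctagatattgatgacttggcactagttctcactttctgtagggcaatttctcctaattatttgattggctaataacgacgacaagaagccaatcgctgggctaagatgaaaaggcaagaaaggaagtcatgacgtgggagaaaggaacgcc
H2-M2: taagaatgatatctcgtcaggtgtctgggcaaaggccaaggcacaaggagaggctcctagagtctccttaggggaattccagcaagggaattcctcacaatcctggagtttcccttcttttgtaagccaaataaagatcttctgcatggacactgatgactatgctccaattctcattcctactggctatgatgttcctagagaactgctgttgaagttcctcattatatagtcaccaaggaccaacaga
B2m: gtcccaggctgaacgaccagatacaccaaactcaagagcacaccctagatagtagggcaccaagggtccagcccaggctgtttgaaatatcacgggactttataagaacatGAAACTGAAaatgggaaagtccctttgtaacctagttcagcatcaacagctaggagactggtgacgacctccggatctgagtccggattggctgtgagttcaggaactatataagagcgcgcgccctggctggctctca
The windows lie at chr17:34000348-34000597 (minus strand) for H2-K1, chr17:35438905-35439154 (plus) for H2-Q7, chr17:36042743-36042992 (minus) for H2-T22, chr17:37483555-37483804 (minus) for H2-M2 and chr2:122147437-122147686 (plus) for B2m. All 10 members had a promoter in the table. The kappa B letters occurred in 4 of them (H2-K1, H2-D1, H2-Q6 and H2-Q7) and in 59 of all 27025 promoters (0.218%). The exact interferon pattern GAAANNGAA was matched in H2-T22, H2-T23 and B2m, against 7.16% of all promoters. The TGACGC core was matched in H2-K1, H2-D1 and H2-M3, against 6.14%. Letters close to the interferon pattern, tttcacttc, stand in H2-K1, H2-D1, H2-Q4, H2-Q6, H2-Q7 and H2-M3. The search did not count them, in these genes or over all promoters. The lack of an exact match therefore does not show that these genes lack an interferon element. The inverted CCAAT letters ATTGG, or CCAAT itself, were found in 10 of 10 members and in 34.5% of all promoters, as both strands were searched. H2-M2 and H2-T23 held CCAAT and not ATTGG on the gene's strand. H2-M2 had no exact match to the other 3 motifs. Its window does hold letters close to the kappa B and interferon patterns (ggggaattcc and tttcccttc), which the search did not count. Letters close to the kappa B element also stand in H2-Q4 (ggggatttcc) and H2-M3 (ggagattccc). Those of tgacgt, close to the TGACGC core, stand in H2-Q4, H2-Q7 and H2-T22. The search counted none of these either. H2-M2 had 1 CpG in its window, against 5 to 14 in the other members and a median of 6 over all promoters. TATAAA, also searched on both strands, was matched in H2-D1, H2-Q4 and B2m (13.0% of all promoters). In B2m the match lies on the opposite strand, as tttata, and the gene's own strand holds no TATAAA in the window. A match is a run of letters and does not show that a factor binds.

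The libraries held 3941381 to 20806925 reads, the fewest in adventitia library 1. A floor of 3 reads equals 0.761 CPM (counts scaled to library size) there and 0.144 CPM in intima library 2. Fewer genes had a read in intima (17489 and 16374) than in adventitia (23289, 25212 and 25738), although the intima libraries held more reads. The cause was not tested. A gene without an intima read may therefore have been missed despite the depth. Read numbers cover counting error only, since the reads passed PCR without molecular identifiers. Nothing in the labels says that the adventitia libraries came from separate animals, so the spread between libraries may be technical. The spread was unequal: edgeR's common biological coefficient of variation was 0.703 within adventitia and 1.28 within intima. Apoe, the gene deleted in the adventitia mice, had 10.8 to 21.1 CPM in adventitia, against 4741 and 4209 CPM in intima. The 9 macrophage markers listed (among them Csf1r, Adgre1 and Lyz2) were all read in every library. Their summed level was 14115 to 19282 CPM in adventitia and 12682 to 15323 CPM in intima. Lyz2 alone had 7835 to 13334 CPM in adventitia and 10147 and 5186 CPM in intima. Single markers differed in both directions. Groups did not overlap for 2 higher in intima (Adgre1 and Cx3cr1, 14.1% over all genes) and 2 lower (Itgam and C1qa, 26.4% over all genes). Markers of other cells were present too and are given beside the results they move with.

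**Figure D2:**
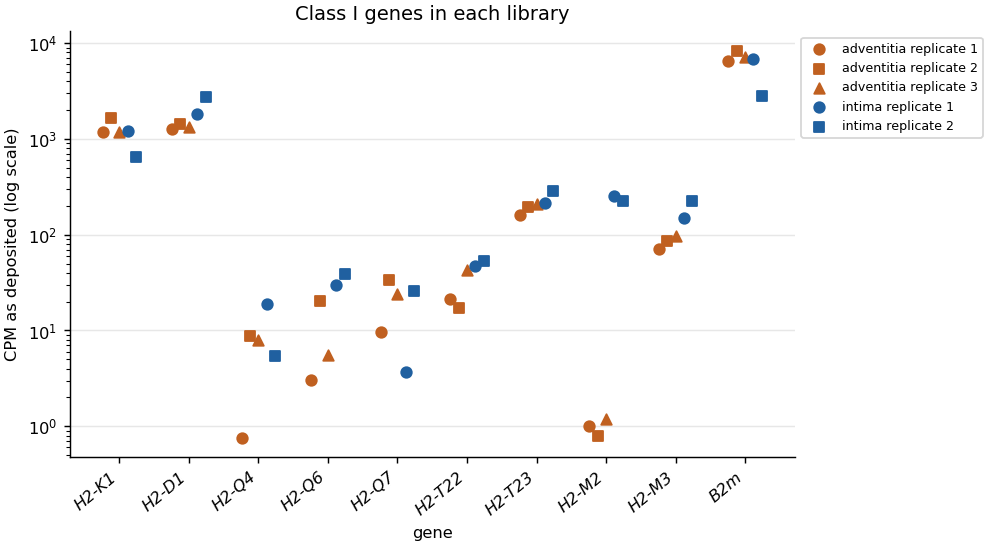
CPM as deposited (y axis, log scale) of the 10 class I genes in each of the 5 libraries; colour gives the group and marker shape the replicate number. H2-M2 lies near 1 CPM in the adventitia libraries and above 200 CPM in both intima libraries, while H2-K1 and B2m overlap between the groups.

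The classical heavy chains H2-K1 and H2-D1 were the most abundant class I heavy chains in every library, but they stood differently in the 2 groups. H2-K1 had 1192, 1647 and 1181 CPM in adventitia, against 1200 and 653 CPM in intima. The groups overlap, with intima library 2 alone below the rest, and the log2 difference (intima minus adventitia, here and throughout) was -0.27 ± 0.45 (SE). H2-D1 had 1262, 1434 and 1333 CPM in adventitia and 1838 and 2741 CPM in intima. Both intima libraries lay above all 3 adventitia libraries, with means of 1343 ± 86.5 CPM (SD, n = 3) and 2290 ± 639 CPM (SD, n = 2) and a log2 difference of 0.99 ± 0.40 (SE). In bulk libraries such as these, fewer cells carrying a transcript and less of it per cell cannot be told apart.

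The balance between the classical chains also differed. There were 0.945, 1.15 and 0.886 H2-K1 reads per H2-D1 read in the adventitia libraries, close to even. The ratio was 0.653 and 0.238 in the intima libraries, below all 3 of the others, and the intima libraries differed from each other by more than the adventitia libraries did. The genes share 141 transcript windows of 50 bases, which is 4.08% of those of H2-K1 and 5.44% of those of H2-D1.

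B2m, the partner of all 9 heavy chains, was among the most abundant transcripts of the macrophages. It had 6470, 8368 and 7169 CPM in adventitia, against 6842 and 2807 CPM in intima. Intima library 1 lay within the adventitia range and intima library 2 far below it, with a log2 difference of -0.34 ± 0.53 (SE). By reads, B2m ranked 11, 9 and 12 among all genes in adventitia and 12 and 27 in intima. The intima libraries differed 2.73-fold for B2m in TMM-normalised CPM, against a median of 1.66-fold over 1562 genes with a mean of at least 100 CPM. Without intima library 2 the log2 difference of B2m was 0.30 ± 0.34 (SE), and without intima library 1 it was -1.37 ± 0.36, so its sign rests on 1 library. For H2-K1 the same values were 0.24 ± 0.39 and -1.02 ± 0.42.

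H2-M2, a non-classical heavy chain of the M region (ENSMUSG00000016283, chr17:37480851-37483552, minus strand), separated the groups more widely than any other member. It had 4, 8 and 12 reads in the adventitia libraries and 3766 and 4650 in the intima libraries. These counts correspond to 1.01, 0.794 and 1.19 CPM in adventitia (1.00 ± 0.20, SD, n = 3) and 252 and 223 CPM in intima (238 ± 19.9, SD, n = 2). No adventitia library came near the intima libraries, which differed from each other 1.26-fold in TMM-normalised CPM. The ratio of the group means was 237, and the log2 difference 8.10 ± 0.63 (SE), ranking 12 of 13408 genes tested. By reads H2-M2 ranked 13481, 12689 and 11390 among all genes in adventitia and 547 and 671 in intima. The gene had been singled out on this contrast, so its size is a description.

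H2-M3, the M-region chain that presents formylated peptides, had 70.8, 85.5 and 98.0 CPM in adventitia and 151 and 225 CPM in intima. The intima libraries were both higher, and the log2 difference was 1.36 ± 0.47 (SE). Unlike H2-M2, it was well above the floor in both groups, with 279 reads or more in each library. Outside the members, the other M-region genes of the files were scarce. H2-M1, H2-M5, H2-M9, H2-M11, H2-M10.1, H2-M10.3, H2-M10.4 and H2-M10.6 had no read in either intima library, in which 3 reads equal 0.200 and 0.144 CPM. Fewer genes had a read in intima than in adventitia, so a zero there need not mean absence. Of these genes, H2-M5 had 1.78, 0.695 and 8.65 CPM in adventitia. Its log2 difference was -8.40 ± 2.50 (SE, adjusted p = 0.113, edgeR), opposite in sign to H2-M2 and H2-M3.

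The T-region chains were also higher in intima in every library, by less. H2-T23, the Qa-1 chain, had 160, 193 and 211 CPM in adventitia and 216 and 287 CPM in intima, with a log2 difference of 0.63 ± 0.42 (SE). The highest adventitia and the lowest intima library were nearly equal. As a share of heavy chain reads H2-T23 held 5.62 to 7.27% in adventitia and 5.76 and 6.75% in intima, so its ranges overlapped on that scale. H2-T22, read by gamma delta T cells, had 21.3, 17.2 and 42.6 CPM in adventitia and 47.4 and 52.7 CPM in intima, and a log2 difference of 1.10 ± 0.76 (SE). Its adventitia libraries spread 2.60-fold from lowest to highest in TMM-normalised CPM. Most of its windows are shared with other genes, a gene on the opposite strand included.

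The Q-region chains were low and uneven. H2-Q6 had 3.04, 20.2 and 5.57 CPM in adventitia and 29.9 and 39.0 CPM in intima (log2 difference 2.04 ± 1.13, SE). H2-Q4 had 0.761, 8.73 and 7.96 CPM in adventitia and 19.0 and 5.48 CPM in intima (1.29 ± 1.56). H2-Q7, which encodes a Qa-2 molecule, had 9.64, 33.7 and 23.9 CPM in adventitia and 3.67 and 26.0 CPM in intima (-0.45 ± 1.21). H2-Q6 was the only one of these 3 whose groups did not overlap. All 3 varied widely within a group in TMM-normalised CPM: H2-Q4 spanned 12.8-fold and H2-Q6 7.39-fold within adventitia, and H2-Q7 differed 6.31-fold between the intima libraries. Single libraries moved the log2 differences: H2-Q7 was -2.24 without intima library 2 and 0.19 without intima library 1, H2-Q4 was -0.14 without intima library 1, and H2-Q6 was 3.15 without adventitia library 2. Summing H2-Q6 with its near-copy H2-Q7 gave a log2 difference of 0.80 ± 0.81 (SE), in place of the 2.04 of H2-Q6 alone.

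**Figure D3:**
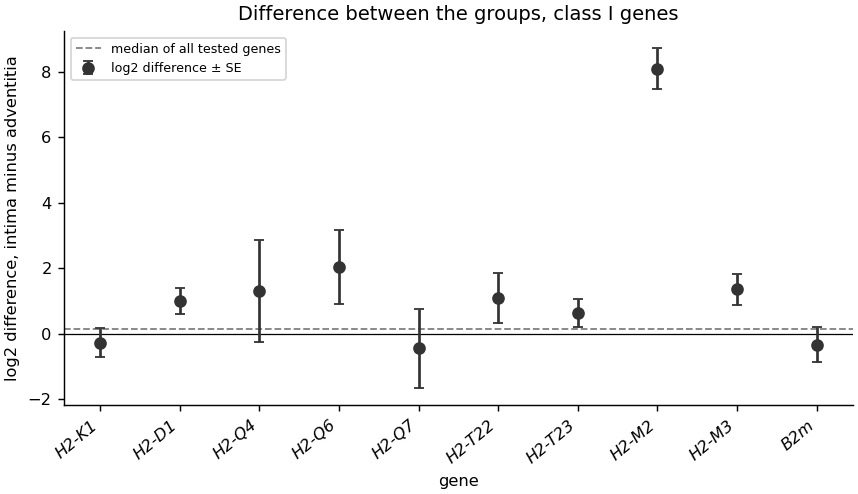
Log2 difference, intima minus adventitia (y axis), of each class I gene from the edgeR fit over all genes; points are estimates, bars ± 1 SE, and the dashed line marks the median of all genes tested (0.14). H2-M2 stands at 8.10, H2-K1, H2-Q7 and B2m lie below 0, and the bars of H2-K1, H2-Q4, H2-Q7 and B2m cross 0.

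All 10 members passed the filter on low reads, each with at least 2 libraries of both groups past its cutoff of 0.992 CPM. One call, H2-M2, was made among the 10 members by edgeR's quasi-likelihood test at an adjusted p under 0.05, against 90 of 13408 genes (0.671%), 70 of them higher in intima (0.522%). The higher share of those calls was 77.8% with TMM, 61.3% with upper-quartile factors and 63.4% with library size alone. Both intima libraries lay above all adventitia libraries in CPM for 6 of the 10 (H2-D1, H2-Q6, H2-T22, H2-T23, H2-M2 and H2-M3), against 14.1% of genes tested. None lay wholly below, against 26.4%. As the choice of members used this contrast, nothing is read from these shares. The median log2 difference was 1.04 over the members, 7 of them above 0, and 0.14 over all genes. The scaling moves that general median to -0.35 with upper-quartile factors and to -0.09 with library size alone. Each member kept its sign under all 3 scalings. With upper-quartile factors every member's log2 difference was lower than with TMM. H2-D1 stood at 0.50 in place of 0.99, H2-T23 at 0.15 in place of 0.63 and H2-M3 at 0.87 in place of 1.36.

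Compared per length, in RPKM, the order of the members was led by B2m in both groups. Adventitia means were 8530 RPKM for B2m, 521 for H2-D1, 514 for H2-K1, 65.1 for H2-T23, 58.9 for H2-M3, 7.91 for H2-T22, 5.26 for H2-Q7, 4.61 for H2-Q6, 2.24 for H2-Q4 and 0.645 for H2-M2. H2-D1 and H2-K1 overlapped there, as did H2-T23 and H2-M3, and each neighbour from H2-T22 down to H2-M2. In intima the means were 5610 RPKM for B2m, 888 for H2-D1, 355 for H2-K1, 153 for H2-M2, 131 for H2-M3, 87.1 for H2-T23, 16.5 for H2-Q6, 14.7 for H2-T22, 4.71 for H2-Q4 and 3.47 for H2-Q7. The pairs H2-M2 and H2-M3, H2-Q6 and H2-T22, and H2-Q4 and H2-Q7 overlapped, and the other neighbours did not. Per length, H2-M2 was thus last of the 10 in adventitia and the most abundant non-classical heavy chain by mean in intima. In CPM, the intima mean of H2-T23 (252) was above that of H2-M2 (238).

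The heavy chains together were higher in both intima libraries on the TMM scale and by share of reads, but not with upper-quartile factors, and B2m overlapped between the groups. Their summed TMM-normalised level was 2346, 3299 and 2923 CPM in adventitia, against 4408 and 4456 CPM in intima. The groups did not overlap, with means of 2856 ± 480 CPM (SD, n = 3) and 4432 ± 33.4 CPM (SD, n = 2). With upper-quartile factors they overlapped, at 2829, 3701 and 3241 CPM in adventitia and 3697 and 3542 CPM in intima (means of 3257 ± 436 and 3620 ± 110.0, SD), a difference smaller than the adventitia spread. As a share of all reads, heavy chains took 0.272, 0.344 and 0.290% in adventitia and 0.376 and 0.425% in intima. B2m took 0.647, 0.837 and 0.717% in adventitia and 0.684 and 0.281% in intima.

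Heavy chain reads per B2m read were steady across adventitia, at 0.421, 0.411 and 0.405 (0.412 ± 0.0078, SD, n = 3). They were 0.549 and 1.51 in the intima libraries (1.03 ± 0.683, SD, n = 2), both above the adventitia range but far apart from each other. Per length, as a ratio of RPKM, the values were 0.141, 0.138 and 0.136 in adventitia and 0.195 and 0.538 in intima, so B2m transcripts outnumbered the heavy chains in all 5 libraries on that scale. Intima library 2 differed most, having both the lowest B2m and the highest H2-D1.

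The makeup of the heavy chain reads also differed between the groups. H2-K1 and H2-D1 together held 90.2, 89.5 and 86.6% of heavy chain reads in adventitia and 80.9 and 79.8% in intima. H2-K1 held 31.9 and 15.4% in intima against 40.7 to 47.9% in adventitia, and H2-D1 held 48.9 and 64.5% against 41.7 to 46.4%. H2-M2 took 6.70 and 5.25% of heavy chain reads in intima, against 0.0231 to 0.0411% in adventitia. H2-M3 took 4.02 and 5.30% against 2.49 to 3.37%.

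**Figure D4:**
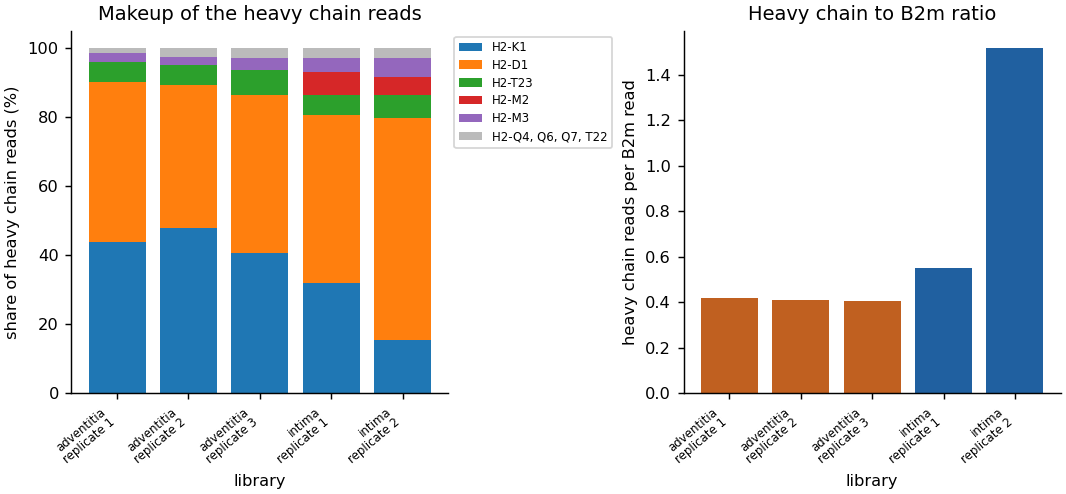
Left, share of heavy chain reads (y axis, percent) held by each gene in each of the 5 libraries, with the 4 scarcest genes joined; right, heavy chain reads per B2m read, 1 bar per library. H2-M2 is visible only in the intima libraries (6.70 and 5.25%), and the ratio to B2m is 0.405 to 0.421 in adventitia, 0.549 in intima library 1 and 1.51 in intima library 2.

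None of the genes that control class I expression and supply its peptides passed the test. Of 29 such genes listed, 28 were tested and 0 were called by edgeR's quasi-likelihood test; 4 had an unadjusted p under 0.05 (Tapbpl, Sec61a1 and Pdia3 higher in intima, Rfxap lower). DESeq2 called 2 (Tapbpl and Rfxap), against 9.14% of all genes tested, and limma voom called Tapbpl alone, against 6.26%. On simulated counts edgeR's test recovered 10% of genes changed 4-fold and 40% of those changed 16-fold. A listed gene that was not called may therefore still differ by several fold. The median log2 difference of the listed genes was 0.26, with 16 genes above 0 and 12 below. Groups did not overlap for 1 gene higher in intima (14.1% over all genes) and 7 of 28 lower (26.4% over all genes).

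Among the regulators, Nlrc5, the class I transactivator, had 10.15, 28.7 and 36.6 CPM in adventitia and 7.35 and 14.1 CPM in intima. The groups overlap, and the log2 difference was -1.06 ± 1.15 (SE; adjusted p = 0.654, edgeR). Irf1, an interferon-induced activator of class I genes, had a log2 difference of 0.56 (adjusted p = 0.594, edgeR). The immunoproteasome genes Psmb8, Psmb9 and Psmb10, which shape the peptide supply, differed by -0.03, 0.14 and 0.65 (adjusted p of 0.515 or more, edgeR).

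Peptide transport and loading gave a mixed picture. Of the TAP transporter subunits, Tap1 differed by -0.66 and Tap2 by 0.94, and tapasin (Tapbp) by 0.83 (adjusted p = 0.653, 0.545 and 0.322, edgeR). Erap1, which trims peptides, differed by 0.12, and the chaperones Calr, Canx and Pdia3 by 0.40, -0.35 and 1.21 (adjusted p of 0.148 or more, edgeR). Tapbpl, the tapasin-related peptide editor, was named after its values were seen: 3.30, 0.695 and 2.49 CPM in adventitia and 30.9 and 68.6 CPM in intima. Its groups were well apart, and its log2 difference was 4.76 ± 1.13 (SE), with an adjusted p of 0.0868 in edgeR. Pirb, an inhibitory receptor that binds class I molecules, had 214 to 250 CPM in adventitia and 146 and 192 CPM in intima (log2 difference -0.23, adjusted p = 0.81, edgeR).

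**Figure D5:**
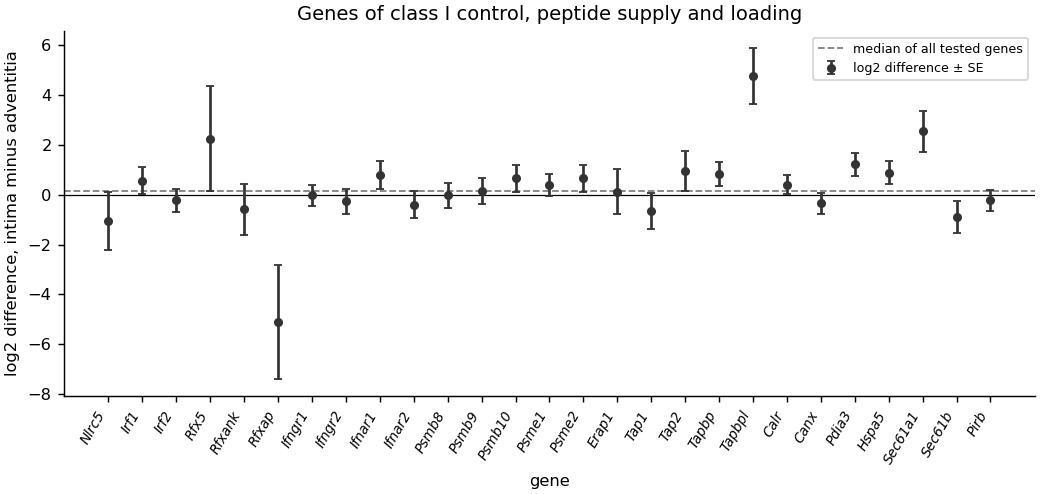
Log2 difference, intima minus adventitia (y axis), of genes of class I control, peptide supply and loading (28 tested, 1 not shown); points are edgeR estimates, bars ± 1 SE, and the dashed line marks the median of all genes tested (0.14). Tapbpl (4.76) and Rfxap (-5.11) lie farthest from 0, and edgeR called none of the 28.

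Class I-like genes outside the member list were mostly scarce. Of 38 listed, 31 were in the files, 13 were tested and 0 were called by edgeR. At an unadjusted p under 0.05 there were 3 (Procr and Raet1d higher, H2-M5 lower). DESeq2 called 2 of the 13 (Procr and H2-M5), against 9.14% of all genes tested, and limma voom called all 3, against 6.26%. There was no intima read for 11 of the 31, and over all genes too fewer had a read in intima than in adventitia. Fcgrt, the neonatal Fc receptor, was the most abundant, with 608 to 692 CPM in adventitia and 403 and 440 CPM in intima (log2 difference -0.38, adjusted p = 0.632, edgeR). Hfe, a class I-like regulator of iron, had 147 to 191 CPM in adventitia and 131 and 149 CPM in intima. Procr, the endothelial protein C receptor, had 1.78, 13.6 and 1.09 CPM in adventitia and 58.5 and 70.2 CPM in intima (3.75 ± 1.13, SE, adjusted p = 0.112, edgeR). Raet1d, a ligand of the NKG2D receptor, had 0.507, 0.198 and 4.67 CPM in adventitia and 26.5 and 19.5 CPM in intima (adjusted p = 0.193, edgeR). Cd1d1, which presents lipids to natural killer T cells, overlapped, with 7.15 to 25.1 CPM against 76.2 and 13.6 CPM.

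Markers of other cell types moved with the group contrast, and their part in the class I values was not tested. Of 9 endothelial markers, 8 were tested and 3 rose (Pecam1, Vwf and Emcn; adjusted p = 0.0022, 0.0344 and 0.00694, edgeR), and their summed level was 30.9 to 54.3 CPM in adventitia and 693 and 767 CPM in intima. Among these, Kdr was at 0.200 CPM or less in intima, and Erg and Cldn5 each had no read in 1 intima library. Of 6 smooth muscle markers, 4 were tested and Tagln rose (adjusted p = 0.00697, edgeR); the sum was 2.48 to 9.39 CPM against 76.9 and 264 CPM, with Acta2 the most abundant by mean in intima (145 and 23.5 CPM), Tagln at 106 and 49.9 CPM and Myh11 at 0.40 CPM or less there. T and natural killer markers summed to 7.24 to 9.90 CPM against 77.8 and 110 CPM, with 0 of 3 tested called and no intima read of Ncr1, Klrb1c or Nkg7. Cd4 was the most abundant of them by group mean, with 109 and 37.5 CPM in intima (log2 difference 4.31, adjusted p = 0.0867, edgeR). Cd3e, Cd3d, Cd3g and Cd8a had 8.31 to 11.7 CPM each in intima library 2, and at most 3 reads each in intima library 1.

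Fibroblast and dendritic cell sums were lower in intima, and B cell sums overlapped. Fibroblast markers summed to 617 to 1426 CPM in adventitia and 213 and 267 CPM in intima, with Dcn the most abundant by mean in adventitia; 1 of 6, Lum, fell (adjusted p = 0.0148, edgeR). Dendritic cell markers summed to 239 to 430 CPM against 35.0 and 43.8 CPM, and 1 of 7, Cd209a, fell (adjusted p = 0.000192, edgeR). Without Cd209a the dendritic sums overlapped, at 56.8, 37.9 and 41.7 CPM in adventitia and 34.5 and 43.4 CPM in intima, and Clec9a was higher in intima, with 4.94 and 21.5 CPM against 0.397 to 4.82 CPM. B cell markers, most abundantly Cd79b, summed to 6.597 to 36.9 CPM against 21.9 and 26.9 CPM, with 0 of 4 tested called. Nearly all nucleated cells make class I molecules, and no value here tells from which cells the class I transcripts came.

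The genes most like H2-M2 over the 5 libraries were sought among 6490 candidates (average log2 CPM of 4 or more), by the root mean square distance between centred log2 normalised levels. They were Bmp6 (distance 0.415), a bone morphogenetic protein, Ecscr (0.517), an endothelial surface protein, Pdgfd (0.524), a growth factor, Apoe (0.546) and Efna5 (0.595), an ephrin. Bmp6 had 0, 0.0992 and 0.895 CPM in adventitia and 105 and 90.8 CPM in intima. Bmp6, Ecscr and Pdgfd had at most 0.895 CPM in adventitia, so they reached the average through the intima libraries. As H2-M2 was singled out on the group contrast, such a search returns genes with the same contrast. The list is a description and does not show that these genes vary together within a group. Apoe is the gene deleted in the adventitia mice. For B2m the nearest were Ypel5 (0.0378), Bet1 (0.0665), Trps1 (0.0736), Wipf1 (0.0861) and Dclre1c (0.0883). Ypel5 had 506, 639 and 586 CPM in adventitia and 525 and 213 CPM in intima, low in intima library 2 as B2m was.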

How the data were processed

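Poly-A RNA of sorted aortic macrophages was amplified with the SMARTer Ultra Low kit over 12 PCR cycles and sequenced as single reads, per the labels' protocols. The authors deposited, per library, whole read counts for 41388 Ensembl gene IDs with CPM and RPKM, on GRCm38, per the file headers. The deposited CPM and RPKM equalled those computed from the deposited counts (0 mismatches at a tolerance of 1e-06). STAR 2.0.4b, Subread and featureCounts 1.4.5 are named in the submitters' processing notes; strand and multi-mapping settings are not given in the sources used here.

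Symbols came from a reference table and were found for 40254 IDs. Depth was 3941381 to 20806925 reads. Counts were tested with edgeR 4.0.16 in R 4.3.3 (glmQLFit and glmQLFTest, TMM, filterByExpr at its minimum count of 10 and total of 15, no covariates) over all 5 libraries, with Benjamini-Hochberg adjustment over 13408 genes and calls at an adjusted p under 0.05. The SE of a log2 difference is its size over the square root of the F statistic. The fit was checked on simulated counts. The members and gene lists were chosen with earlier results of these data known. Named were the members, genes of the pathway list set by name (1 of these is not reported here), class I-like genes with a group mean of at least 10 CPM, the 5 genes most like H2-M2 and B2m (pseudocount 0.5), and the most abundant and the called marker genes; others are named because their count was small. Sequence windows of 50 bases came from GENCODE M21 transcripts and promoters from RefSeq. Alternatives were other scalings, DESeq2 1.42.0, limma 3.58.1 voom, a robust fit, other filters, thinned counts, summed near-copies, leaving out each library, and a block for the replicate number.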

Additional observations from a re-analysis of the deposited data

How the results depend on the processing

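The log2 difference of H2-M2, which chose the members and is a description, was 7.31 to 8.34 over 15 alternatives. The 90 calls over all genes became 1225 with DESeq2, 839 with limma voom, 386 with no filter, 396 with a filter of 1 CPM, and 10 to 389 when 1 library was left out, 10 of them without adventitia library 1 and 389 without intima library 1; the cause was not tested. The share of calls higher in intima was 77.8% with TMM, 61.3% with upper-quartile factors and 63.4% with library size alone, but 40.8% with DESeq2, 25.5% with limma voom and 34.1% with the filter of 1 CPM. Calls in the pathway list were 2 with DESeq2, 1 with limma voom, 2 with no filter (Sec61a1 and Tapbpl) and 0 to 1 with a library left out (Tapbpl, without intima library 1). Calls among the class I-like genes were 2 with DESeq2, 3 with limma voom and 1 with no filter (Procr). The replicate number as a block gave 183 calls over all genes and 1 in the pathway list (Sec61a1). Same-numbered libraries correlated at 0.035 and 0.00565 over genes. With 2 intima libraries the deviations from the group mean mirror each other, so adventitia library 1 gave -0.035 with intima library 2. These values therefore cannot show whether same-numbered libraries shared more than a number. The intima heavy chain total of 4432 CPM, against 2856 in adventitia, was 3620 against 3257 with upper-quartile factors, where the groups overlapped, and 4016 against 3039 with library size alone; as summed RPKM it was 1653 against 1179 in adventitia, and the adventitia ratio to B2m was 0.138 in RPKM. Signs that turned were H2-K1 (0.24) and B2m (0.30) without intima library 2, H2-Q4 (-0.14) and H2-Q7 (0.19) without intima library 1, and H2-K1 summed with H2-D1 (0.49). Where intima kept 1 library, its spread was taken from adventitia. Counts thinned to the smallest library left the SE of H2-Q4 at 1.61, against 1.56.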
